A study of Homo sapiens with 6 samples.

Results

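The genes described here are 9 genes of MHC class I antigen presentation, taken by gene symbol out of the 60612 genes in the deposited table, and all 9 were found there. They are the heavy chains HLA-B, HLA-C and HLA-E, the light chain B2M, both subunits of the peptide transporter, TAP1 and TAP2, the loading chaperone TAPBP, the peptide trimming enzyme ERAP1, and NLRC5, an activator of class I transcription. The series asks what PLOD3, a collagen lysyl hydroxylase, does in the progression of colorectal cancer. RNA-seq libraries depleted of ribosomal RNA were made from 6 samples of HCT116, an established human colorectal cancer cell line. Of these, 3 samples received siRNA against PLOD3 for 2 days and 3 received the control siRNA si NC for the same time, all in DMEM with 10% fetal bovine serum. No siRNA sequence, and no number of siRNAs, is given in the sources used here. The labels do not say whether a group's 3 samples came from separate cultures, so p-values reflect the spread among these samples alone, and that spread may be technical.

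Class I molecules carry peptides of the cell's own proteins to the surface, where CD8 T cells read them and where natural killer cells sense their loss. Peptides cut in the cytosol enter the endoplasmic reticulum (ER) through the TAP1 and TAP2 transporter, are trimmed by ERAP1, and are loaded with the help of tapasin, the product of TAPBP, onto a heavy chain bound to B2M. In many tumours, colorectal ones included, this machinery is reduced by mutation or by lower transcription, and interferon-gamma raises most of its genes through IRF1 and NLRC5.

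Of the 9 genes, TAPBP and TAP1 fell in PLOD3 siRNA samples, to 49.0% and 65.6% of their si NC levels, and TAP2 differed by less than its spread between samples. None of the 3 heavy chains passed the test, B2M did not pass, and neither did ERAP1 and NLRC5, the genes of lowest level. NLRC5 lay under the filter of a mean FPKM of 1 (fragments per kilobase, relative to all mapped fragments of the library), so 8 of the 9 genes entered the test over all genes. In that test, edgeR's quasi-likelihood test with Benjamini-Hochberg adjustment over 12000 genes and a threshold of 0.05, 2 of the 8 were lower and 0 were higher. Over all genes tested, 19.3% were lower and 16.2% were higher, so a count of 2 lower genes out of 8, or 25%, is near the background. DESeq2, which called 19.6% of all genes higher and 21.3% lower (40.9% in all), and both limma fits on log2 FPKM also called 0 of the 8 higher and called 3 lower, with HLA-B as the third. Of the 12000 genes, these limma fits called 2196 and 2172 lower and 1859 and 1838 higher. The median log2 fold change of the 8 genes was -0.24, against 0.00 over all genes tested. Each fold change is given as log2 of PLOD3 siRNA over si NC with its standard error (SE).

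**Figure D1:**
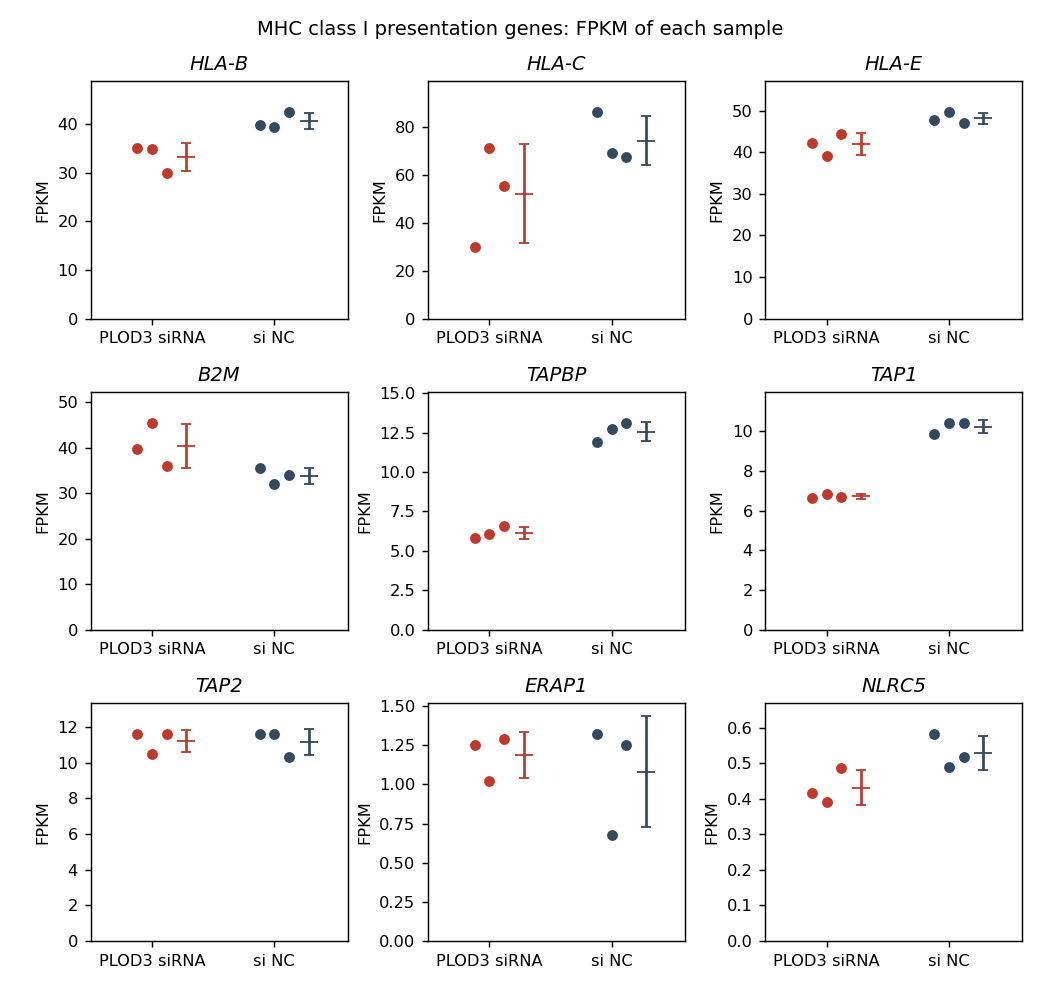
Deposited FPKM of the 9 class I genes in each sample, with each group's mean and SD (n = 3 per group), on panels with their own axes. TAPBP and TAP1 show the widest gaps between groups relative to their spread, and in HLA-C, TAP2 and ERAP1 the groups overlap.

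The libraries differed in depth by less than 1.5-fold, and the siRNA target was lower in the samples that received it. Estimated counts summed to 55416555 to 71736017 in PLOD3 siRNA samples and to 57457602 to 76802428 in si NC samples. How many units stand for 1 read pair is not stated in the sources. PLOD3 had 3.44, 3.40 and 4.05 FPKM in PLOD3 siRNA samples, against 6.40, 7.16 and 6.22 FPKM in si NC samples, a level of 55.1% (log2 -0.85, SE 0.107, edgeR adjusted p = 0.0035). PLOD3 transcripts have 61.7% GC, and with the correction for GC content described below its log2 fold change was -0.54 (edgeR adjusted p = 0.00662). Over all genes 1945 were higher and 2319 lower. With limma on TPM, in which each sample sums to the same total, these counts were 2470 and 1461, and the median log2 of all genes moved to 0.10. Epithelial markers summed to 573 to 651 FPKM in PLOD3 siRNA samples and 695 to 741 FPKM in si NC samples, with CDX1 listed at 0 among 8 markers. Of 10 leukocyte markers, PTPRC, CD3E and MS4A1 were listed at 0 in every sample, and the list summed to 1.78 to 2.05 FPKM in PLOD3 siRNA samples and 1.03 to 2.03 FPKM in si NC samples. The 6 markers of antigen-presenting cells, which are mostly class II genes, summed to 2.33 to 3.50 FPKM in PLOD3 siRNA samples and 4.67 to 5.85 FPKM in si NC samples, with 0 of them absent from all samples. The 6 fibroblast markers summed to 1.45 to 1.91 FPKM in PLOD3 siRNA samples and 2.62 to 2.69 FPKM in si NC samples, with DCN and LUM listed at 0. The 4 endothelial markers summed to 0.0795 to 0.119 FPKM in PLOD3 siRNA samples and 0.0785 to 0.221 FPKM in si NC samples, with CDH5 listed at 0. All 6 samples are labelled as the HCT116 line, so these sums are not read as numbers of cells of other types. The part of these lists in the results was not tested. In bulk RNA, fewer cells with a transcript and less of it per cell cannot be told apart.

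A trend with base composition ran through the whole comparison and touches most of the 9 genes, so it is given here before their values. Genes with a transcript GC content of 40% to 42.5% had a median log2 fold change of 0.26, while those of 60% to 62.5% had -0.31. HLA-C (60.0% GC), HLA-B (59.0%), NLRC5 (58.0%), TAPBP (57.6%), TAP1 (57.5%) and HLA-E (54.8%) lie on the GC-rich side, TAP2 (49.1%) lies at its middle, and ERAP1 (39.7%) and B2M (39.4%) lie on the GC-poor side. The fold changes of the 9 genes are therefore given beside a fit in which a smooth trend of the counts with GC content was removed per sample (the GC correction). What made the trend was not tested.

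Sequence stretches in front of 7 of the 9 genes were found in the RefSeq promoter table (GRCh38.p14), which holds 250 bases before and 50 bases after each start. The 5 shown are those of the chaperone, both transporter subunits, the light chain and HLA-B, because interferon and NF-kappaB act on class I genes through sites in such stretches. Capitals mark matches to the core of the interferon-stimulated response element (ISRE: GAAA, any 2 bases, GAAA) or to a kappaB site (GGG, any 2 bases, T, any 2 bases, CC), searched on both strands, with overlapping matches run together. They lie at chr6:33314029-33314328 for TAPBP, chr6:32853655-32853954 for TAP1, chr6:32838690-32838989 for TAP2 and chr6:31357130-31357429 for HLA-B, all on the minus strand, and at chr15:44711267-44711566 on the plus strand for B2M.
TAPBP: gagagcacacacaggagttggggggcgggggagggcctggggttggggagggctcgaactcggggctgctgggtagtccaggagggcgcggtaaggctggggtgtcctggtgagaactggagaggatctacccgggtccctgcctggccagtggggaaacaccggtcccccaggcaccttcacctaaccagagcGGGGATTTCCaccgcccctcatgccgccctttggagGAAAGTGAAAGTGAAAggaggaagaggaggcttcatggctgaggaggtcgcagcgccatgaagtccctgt
TAP1: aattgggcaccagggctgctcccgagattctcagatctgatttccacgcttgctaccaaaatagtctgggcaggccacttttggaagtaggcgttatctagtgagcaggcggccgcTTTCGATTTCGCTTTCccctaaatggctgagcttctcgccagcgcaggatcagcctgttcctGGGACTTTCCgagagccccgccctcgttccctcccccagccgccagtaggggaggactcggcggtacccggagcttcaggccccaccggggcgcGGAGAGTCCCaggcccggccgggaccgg
TAP2: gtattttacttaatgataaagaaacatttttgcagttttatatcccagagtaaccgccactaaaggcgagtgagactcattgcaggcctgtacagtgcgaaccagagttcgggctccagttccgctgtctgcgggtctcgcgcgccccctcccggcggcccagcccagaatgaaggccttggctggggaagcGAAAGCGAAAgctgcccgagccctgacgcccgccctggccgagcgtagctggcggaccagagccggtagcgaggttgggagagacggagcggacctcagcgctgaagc
B2M: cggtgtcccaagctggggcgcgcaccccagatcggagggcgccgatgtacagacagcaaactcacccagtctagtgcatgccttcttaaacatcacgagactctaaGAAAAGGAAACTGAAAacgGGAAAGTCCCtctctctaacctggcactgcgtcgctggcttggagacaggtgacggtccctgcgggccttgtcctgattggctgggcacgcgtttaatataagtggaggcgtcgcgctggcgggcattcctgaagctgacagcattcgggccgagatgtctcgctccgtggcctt
HLA-B: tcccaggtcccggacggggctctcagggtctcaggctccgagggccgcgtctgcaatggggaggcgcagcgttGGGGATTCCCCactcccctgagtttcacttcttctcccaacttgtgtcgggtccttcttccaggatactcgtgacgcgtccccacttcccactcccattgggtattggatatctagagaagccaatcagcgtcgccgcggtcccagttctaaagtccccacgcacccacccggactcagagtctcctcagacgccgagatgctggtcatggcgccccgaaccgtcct

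TAPBP held 2 overlapping ISRE matches, the first of which begins 20 bases before the start site, and 1 kappaB match. TAP1 held 2 overlapping ISRE matches on the opposite strand and 2 kappaB matches, and TAP2 held 1 ISRE match and 0 kappaB matches. B2M held 2 overlapping ISRE matches and 1 kappaB match, and ERAP1 held 1 ISRE match and 2 overlapping kappaB matches. HLA-B and HLA-C held 0 ISRE matches, with 2 overlapping kappaB matches in HLA-B and 1 in HLA-C. Of all 27305 promoters in the table, 3.65% held the ISRE core and 21.5% held the kappaB motif, and ISRE matches were found in 5 of the 7 stretches here. Of 226 tested genes with an ISRE match, 22.1% were higher and 16.4% were lower, against 16.9% and 20.5% of the 8617 tested genes with any promoter in the table. Of 2304 tested genes with a kappaB match, 14.5% were higher and 24.6% were lower. A match says only that these letters are present. The lack of a match says only that this exact pattern is absent, because near matches were not searched. TAPBP, TAP1, B2M and TAP2 each held the ISRE core and differed in fold change, and whether any match bears on the fold changes was not tested.

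Tapasin is the chaperone that bridges the peptide transporter and the empty heavy chain. TAPBP (ENSG00000231925, chr6:33299694-33314251, minus strand, GRCh38) had 5.82, 6.09 and 6.55 FPKM in PLOD3 siRNA samples, against 11.9, 12.7 and 13.1 FPKM in si NC samples. Every PLOD3 siRNA sample was thus far below every si NC sample, and the spread within a group was small. The level averaged 6.15 ± 0.370 FPKM in PLOD3 siRNA samples and 12.6 ± 0.616 FPKM in si NC samples (SD, n = 3 each), and the log2 fold change was -1.02 (SE 0.0843, edgeR adjusted p = 0.00193). Only 2.01% of the genes tested were called with at least a 2-fold lower level, and TAPBP was 1 of those 241 genes. After the GC correction its log2 fold change was -0.80 (edgeR adjusted p = 0.00293), and with transcript length added it was -0.73 (edgeR adjusted p = 0.00282). The 759 tested genes within 1 percentage point of its GC content had a median log2 fold change of -0.27.

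TAP1 and TAP2 form the heterodimer that pumps peptides into the ER, and neither subunit works alone. TAP1 (ENSG00000168394, chr6:32845209-32853978, minus strand) had 6.62, 6.85 and 6.66 FPKM in PLOD3 siRNA samples, against 9.85, 10.4 and 10.4 FPKM in si NC samples. The PLOD3 siRNA samples were nearly equal and all below the si NC samples. TAP1 averaged 6.71 ± 0.122 FPKM in PLOD3 siRNA samples and 10.2 ± 0.318 FPKM in si NC samples, and its log2 fold change was -0.60 (SE 0.0774, edgeR adjusted p = 0.00373). The GC correction left -0.38 (edgeR adjusted p = 0.0102), and GC and length together left -0.37 (edgeR adjusted p = 0.0104). The 758 genes of like GC content had a median of -0.26, and 35.0% of them were lower, so TAP1 stood among many lower genes of its composition.

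TAP2 (ENSG00000204267, chr6:32821833-32838770, minus strand), its partner, had 11.6, 10.5 and 11.6 FPKM in PLOD3 siRNA samples and 11.6, 11.6 and 10.3 FPKM in si NC samples. The groups overlapped completely. Its mean was 11.2 ± 0.649 FPKM in PLOD3 siRNA samples and 11.1 ± 0.716 FPKM in si NC samples, and its log2 fold change was 0.01 (SE 0.0731, edgeR adjusted p = 0.899). That value turned to -0.03 with only genes of at least 5 FPKM, and also without si NC replicate 3, and was 0.02 after the GC correction. In the GENCODE annotation, TAP2 shares 32.3% of its exon bases with AL669918.1 on the same strand, a gene at 0.102 FPKM in PLOD3 siRNA samples and 0.280 FPKM in si NC samples. TAP1 shares 9.5% of its exon bases with PSMB8-AS1 on the opposite strand, which stood at 0.0490 FPKM in PLOD3 siRNA samples and 0.0991 FPKM in si NC samples, and no strand setting is stated for the counts.

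Within each library, TAP1 and TAPBP both stood lower relative to TAP2 in PLOD3 siRNA samples. The FPKM of TAP1 divided by that of TAP2 was 0.570, 0.654 and 0.574 in PLOD3 siRNA samples, against 0.851, 0.902 and 1.01 in si NC samples. The same ratio for TAPBP was 0.501, 0.581 and 0.564 in PLOD3 siRNA samples, against 1.03, 1.10 and 1.27 in si NC samples. Neither ratio overlapped between the groups, and the group means of the log2 ratios differed by -0.62 for TAP1 and by -1.04 for TAPBP. The exact two-sided permutation test gave p = 0.1 for each, which is the smallest value that 3 against 3 samples allow. After the GC correction the fold changes of TAP1 and TAP2 still differed by -0.40 on the log2 scale and those of TAPBP and TAP2 by -0.82. Such ratios show unequal change between the subunits and not that TAP2 did not change.

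**Figure D2:**
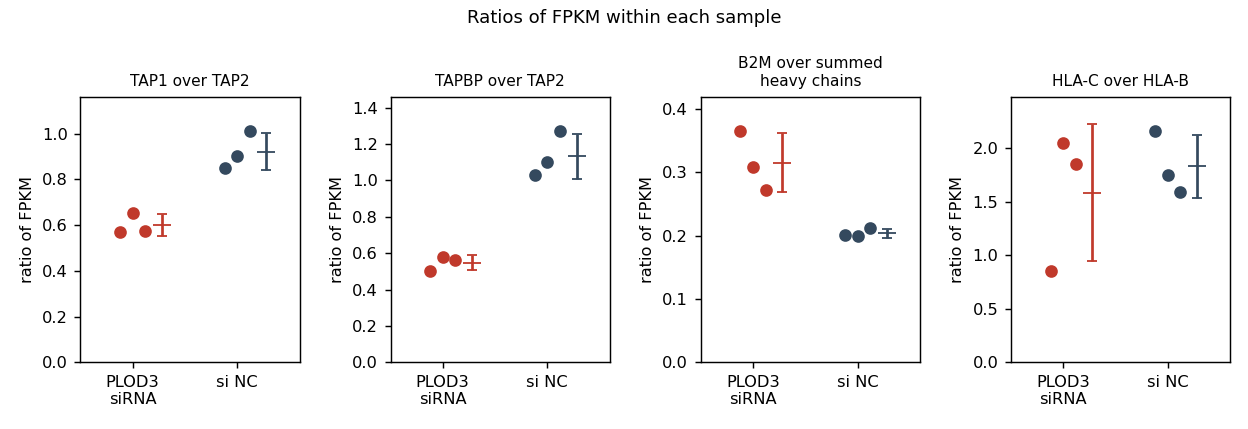
Ratios of FPKM within each sample for the transporter subunits, tapasin, the light chain and the heavy chains, with group means and SD (n = 3 per group). TAP1 over TAP2 lay between 0.570 and 0.654 in PLOD3 siRNA samples and between 0.851 and 1.01 in si NC samples.

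The classical heavy chains HLA-B and HLA-C present peptides to CD8 T cells, and HLA-E presents signal peptides of other class I chains to natural killer cell receptors. HLA-B (ENSG00000234745, chr6:31269491-31357179, minus strand) had 35.1, 34.8 and 29.9 FPKM in PLOD3 siRNA samples, against 39.9, 39.5 and 42.5 FPKM in si NC samples. All PLOD3 siRNA samples were lower than all si NC samples, by a gap smaller than the range within the PLOD3 siRNA group. The mean was 33.3 ± 2.92 FPKM in PLOD3 siRNA samples and 40.7 ± 1.63 FPKM in si NC samples, and the log2 fold change of -0.28 (SE 0.0945) missed the threshold (edgeR adjusted p = 0.058). With DESeq2 the adjusted p of HLA-B was 0.0499, and over 20 alternatives it lay between 0.0277 and 0.907, with 4 of them under the threshold. With GC corrected, HLA-B stood at -0.02 (edgeR adjusted p = 0.887), and the 740 genes of like GC content had a median of -0.27.

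HLA-C (ENSG00000204525, chr6:31268749-31272105, minus strand) varied most. It had 30.1, 71.4 and 55.3 FPKM in PLOD3 siRNA samples, against 86.3, 69.3 and 67.5 FPKM in si NC samples. PLOD3 siRNA replicate 2 lay inside the si NC range, while replicate 1 was lower than every other sample. The mean was 52.3 ± 20.8 FPKM in PLOD3 siRNA samples and 74.4 ± 10.3 FPKM in si NC samples, and the log2 fold change of -0.49 (SE 0.309) did not pass (edgeR adjusted p = 0.254). Without PLOD3 siRNA replicate 2 it was -0.82 (edgeR adjusted p = 0.0804), and without PLOD3 siRNA replicate 1 it was -0.21 (edgeR adjusted p = 0.40). With GC corrected it was -0.22 (edgeR adjusted p = 0.641).

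HLA-E (ENSG00000204592, chr6:30489509-30494194, plus strand) had 42.3, 39.1 and 44.4 FPKM in PLOD3 siRNA samples, against 47.7, 49.7 and 47.1 FPKM in si NC samples. The groups did not overlap and lay close together. Its means were 41.9 ± 2.67 FPKM in PLOD3 siRNA samples and 48.2 ± 1.39 FPKM in si NC samples, and its log2 fold change was -0.20 (SE 0.0662, edgeR adjusted p = 0.0588), or -0.06 with GC corrected (edgeR adjusted p = 0.452).

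The heavy chains are close relatives, so short reads can be assigned to the wrong gene, and the values of HLA-B, HLA-C and HLA-E are uncertain for that reason. Between 1.88% and 4.03% of the 50-base windows in the coding sequences of HLA-B, HLA-C, HLA-E and HLA-F were also present in another of the 4, with HLA-C at 4.03%, HLA-E at 3.51% and HLA-B at 1.92%. These shares come from the reference alleles, and the alleles of HCT116 were not used here. The longest run shared by the coding sequences of HLA-B and HLA-C is 66 bases and is printed below. A read pair wholly inside the run would name neither gene. Read length was not used here, and how many reads could not be told apart was not tested. The run covers coding positions 420 to 485 in both, at chr6:31356301-31356366 for HLA-B and chr6:31271207-31271272 for HLA-C, minus strand, GRCh38.
HLA-B and HLA-C: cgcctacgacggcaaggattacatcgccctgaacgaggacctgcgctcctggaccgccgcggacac
In the annotation, the span of HLA-B also reaches over the HLA-C locus on the same strand, with 35 exon bases in common. The FPKM ratio of HLA-C to HLA-B was 0.857, 2.05 and 1.85 in PLOD3 siRNA samples, against 2.16, 1.75 and 1.59 in si NC samples. Only PLOD3 siRNA replicate 1 stood apart, and the exact two-sided permutation p was 0.8.

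To set aside how reads were divided among these heavy chains, the counts of HLA-B, HLA-C, HLA-E, HLA-F and HLA-G were summed into 1 value before the fit. The log2 fold change of the sum was -0.34 (SE 0.118) and did not pass (edgeR adjusted p = 0.0649). The sum leaves out heavy chains that are not reported here, so its call holds for these 5 genes alone and says nothing of all class I heavy chains together. In FPKM, HLA-B, HLA-C, HLA-E and HLA-F summed to 109, 147 and 132 in PLOD3 siRNA samples, against 176, 161 and 160 in si NC samples, with no overlap (exact two-sided permutation p = 0.1). Without PLOD3 siRNA replicate 2 the summed counts passed (log2 -0.45, edgeR adjusted p = 0.0253), and without PLOD3 siRNA replicate 1 the value was -0.23 (edgeR adjusted p = 0.138). DESeq2 gave an adjusted p of 0.0405 for the sum. With GC corrected the summed change was -0.11 (edgeR adjusted p = 0.53).

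B2M is the light chain that every class I heavy chain needs to fold and reach the surface. B2M (ENSG00000166710, chr15:44711487-44718877, plus strand) had 39.8, 45.4 and 35.9 FPKM in PLOD3 siRNA samples, against 35.5, 32.0 and 33.9 FPKM in si NC samples. Its lowest PLOD3 siRNA sample was just above its highest si NC sample. Means were 40.4 ± 4.74 FPKM in PLOD3 siRNA samples and 33.8 ± 1.73 FPKM in si NC samples, and the log2 fold change of 0.27 (SE 0.112) did not pass (edgeR adjusted p = 0.108). Among 20 alternatives it passed only without PLOD3 siRNA replicate 3 (log2 0.36, edgeR adjusted p = 0.0461). After the GC correction it was 0.00 (edgeR adjusted p = 0.989), after GC and length it turned to -0.09, and the 891 genes of like GC content had a median of 0.25, so the sign of B2M depends on this correction. Divided by the summed FPKM of HLA-B, HLA-C, HLA-E and HLA-F, B2M stood at 0.365, 0.309 and 0.272 in PLOD3 siRNA samples, against 0.201, 0.199 and 0.212 in si NC samples. This ratio did not overlap between the groups (log2 0.62, exact two-sided permutation p = 0.1), and it sets a GC-poor gene against GC-rich genes.

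ERAP1, the aminopeptidase that shortens peptides in the ER to the length class I holds, was low in HCT116. ERAP1 (ENSG00000164307, chr5:96760810-96808100, minus strand) had 1.25, 1.02 and 1.29 FPKM in PLOD3 siRNA samples, against 1.32, 0.675 and 1.25 FPKM in si NC samples. The groups overlapped, with si NC replicate 2 lowest. Means were 1.19 ± 0.147 FPKM in PLOD3 siRNA samples and 1.08 ± 0.355 FPKM in si NC samples. The log2 fold change was 0.14 (SE 0.248, edgeR adjusted p = 0.695), and it turned to -0.10 after the GC correction and to -0.10 without si NC replicate 2. ERAP1 shares 3.8% of its exon bases with CAST on the opposite strand, at 9.22 FPKM in PLOD3 siRNA samples and 9.78 FPKM in si NC samples, so reads of CAST can enter its value where strand is not used.

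NLRC5 encodes the activator that binds, with RFX proteins, to class I promoters. NLRC5 (ENSG00000140853, chr16:56989485-57083524, plus strand) had 0.417, 0.390 and 0.487 FPKM in PLOD3 siRNA samples, against 0.581, 0.488 and 0.518 FPKM in si NC samples. The groups did not overlap, but 0.487 FPKM in a PLOD3 siRNA sample and 0.488 FPKM in an si NC sample were nearly the same. Its counts were 323 to 443 in PLOD3 siRNA samples and 471 to 586 in si NC samples, and these units may overstate the number of read pairs. In the fit without a filter, over 32482 genes of which 10.8% passed (4.49% higher, 6.29% lower), its log2 fold change was -0.28 (SE 0.143, edgeR adjusted p = 0.298). Among genes of at least 0.1 FPKM, a limit chosen after its values were seen, the GC correction gave -0.06 (edgeR adjusted p = 0.801).

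By mean FPKM in PLOD3 siRNA samples the order was HLA-C (52.3), HLA-E (41.9), B2M (40.4), HLA-B (33.3), TAP2 (11.2), TAP1 (6.71), TAPBP (6.15), ERAP1 (1.19) and NLRC5 (0.431). In si NC samples it was HLA-C (74.4), HLA-E (48.2), HLA-B (40.7), B2M (33.8), TAPBP (12.6), TAP2 (11.1), TAP1 (10.2), ERAP1 (1.08) and NLRC5 (0.529). TAPBP thus stood below both transporter subunits in PLOD3 siRNA samples and above both in si NC samples. Ranges of neighbours overlapped within PLOD3 siRNA samples for HLA-C and HLA-E, HLA-E and B2M, and in si NC samples for TAP2 and TAP1. FPKM is scaled by length, but the lengths used for it are not stated in the sources. In PLOD3 siRNA replicate 1, B2M had 20523 counts at 39.8 FPKM, and HLA-B had 9087 counts at 35.1 FPKM. The longest coding transcripts of B2M and HLA-B are close in length, at 1705 and 1547 bases. The order of genes therefore depends on the lengths behind the FPKM, and these could not be checked.

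**Figure D3:**
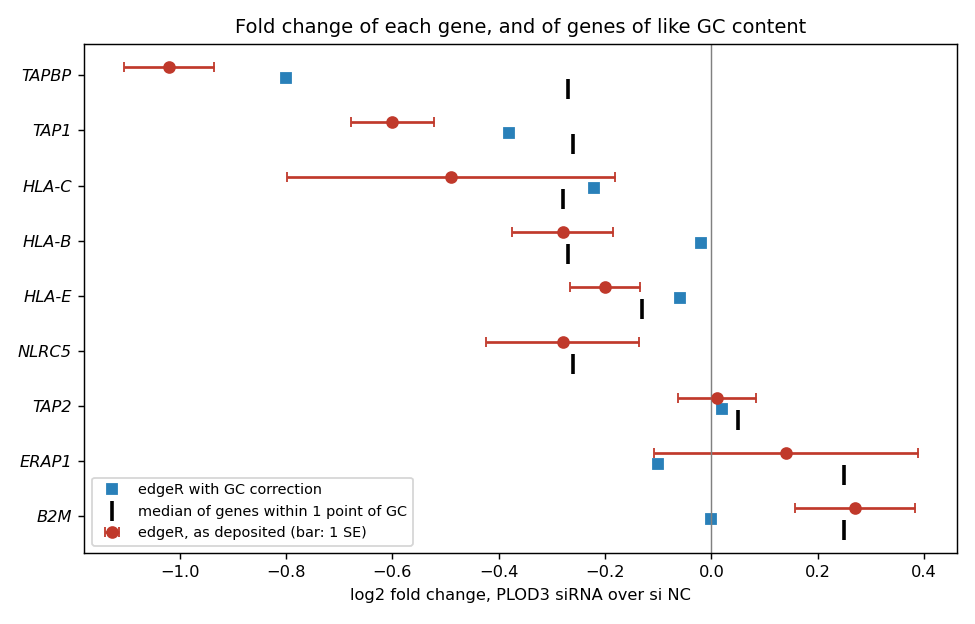
The log2 fold change of each class I gene with its SE, the value after the GC correction, and the median of tested genes within 1 percentage point of its GC content. NLRC5, under the filter, is from the fit without a filter and has no corrected point. TAPBP and TAP1 lie left of their GC-matched medians of -0.27 and -0.26, while HLA-B and B2M lie close to theirs, at -0.27 and 0.25.

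Groups of FPKM did not overlap for 6 of the 9 genes. The PLOD3 siRNA samples lay below for TAPBP, TAP1, HLA-B, HLA-E and NLRC5 and above for B2M. Over all genes tested 52.1% did not overlap, 27.5% with PLOD3 siRNA lower and 24.6% higher, so 6 of 9 is near the background, and for each of the 6 the exact two-sided permutation p was 0.1. FPKM over all genes summed to 357209 to 377471 in PLOD3 siRNA samples and to 386459 to 403665 in si NC samples. Narrow gaps, such as those of HLA-E and NLRC5, therefore depend on the FPKM scale and need not remain with equal totals. Of genes with a GC content like that of HLA-B, 39.9% were lower in the edgeR test and 3.38% were higher, while near B2M 2.47% were lower and 32.7% were higher. Near TAP2, at the middle of the range, 14.2% were lower and 14.9% were higher. With GC corrected, 27.4% of all genes passed in either direction (13% higher, 14.4% lower), against 35.5% without the correction, TAPBP and TAP1 were still the 2 genes called, and the median of the 8 genes was -0.08.

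**Figure D4:**
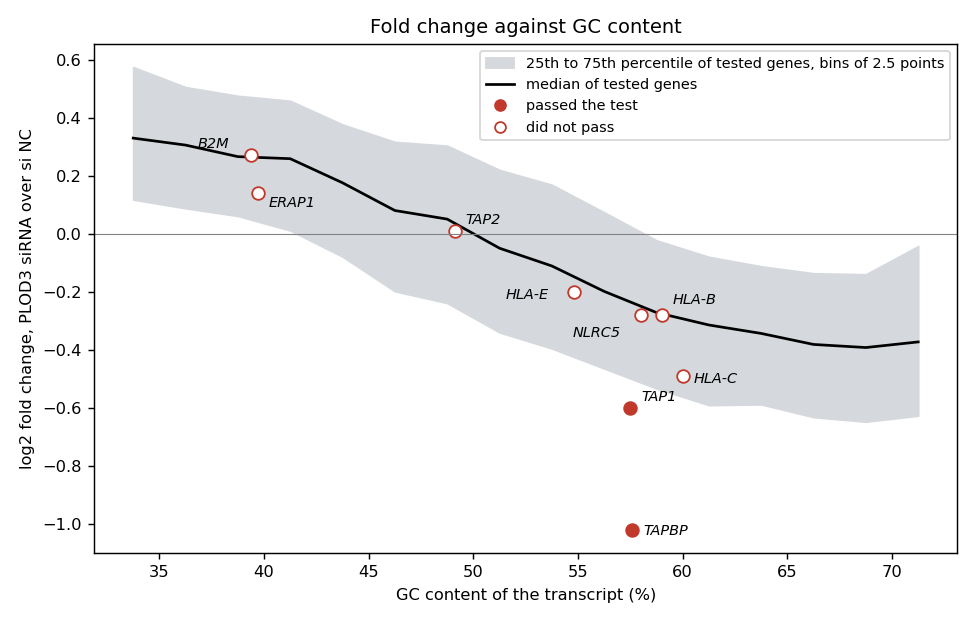
Median log2 fold change of tested genes, with quartiles, in bins of transcript GC content, with the 9 class I genes drawn as named points. The bin from 40% to 42.5% GC has a median of 0.26 and that from 60% to 62.5% has -0.31, and TAPBP lies lowest among the named points, at -1.02.

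Profiles over the 6 samples were set against each other as the root mean square distance between log2(FPKM + 1) values scaled to mean 0 and SD 1. Among the 9 genes, TAP1 and TAPBP were nearest, at 0.11, and HLA-E and B2M were farthest, at 2. For TAP1 the nearest protein-coding genes outside the set were TMEM158 (0.02), TBC1D22A (0.051) and PABPC1 (0.06), all of which fell (log2 -1.25, -0.63 and -0.26). For B2M they were NDUFA1 (0.063), SSR2 (0.085) and RPL34 (0.11), none of which passed the test, at log2 0.34, 0.07 and 0.37. For NLRC5 they were PLA2G7 (0.10), SH3YL1 (0.13) and CEP19 (0.16), of which CEP19 alone passed (log2 -0.54, edgeR adjusted p = 0.0442). Near TAP1, 468 genes lay within a distance of 0.25, against 50 near B2M and 24 near NLRC5. These distances describe 6 samples in 2 groups and do not rank genes by relation.

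The rest of the pathway was read from 9 lists of 86 genes, of which 71 passed the filter. Of these, 12 were higher and 12 were lower (16.9% in each direction), which is near the 16.2% and 19.3% of all genes tested, and their median log2 fold change was -0.02. With GC corrected, 12 were higher and 6 were lower, and these were not all the same genes. MICA, CALR, PSMB10, PSME2 and THOP1 passed as higher, and JAK1 as lower, with the correction and not without it. Adjusted p-values below come from the same edgeR test. Each list is small and was chosen with earlier results of these data known, so its count is not read as a result for the pathway.

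Among 8 tested class I-like and other heavy chains outside the set, 1 was lower and 1 was higher, against 19.3% and 16.2% of all genes tested. Their median was -0.08. ULBP1, a ligand of the natural killer receptor NKG2D, fell by 0.34 on the log2 scale (edgeR adjusted p = 0.0406), and MICB, another NKG2D ligand, rose by 0.22 (edgeR adjusted p = 0.0401).

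The list drawn up for peptide loading and trimming in the ER, beside TAPBP and ERAP1, had 8 tested genes. Not all of them load or trim peptides there, and SPPL3 is 1 that does not. CANX, the chaperone calnexin, rose to 135 ± 11.1 FPKM in PLOD3 siRNA samples, against 103 ± 7.36 FPKM in si NC samples (log2 0.40, edgeR adjusted p = 0.0127). With GC corrected, CANX did not pass (edgeR adjusted p = 0.101). SPPL3, an intramembrane protease, fell (log2 -0.50, edgeR adjusted p = 0.00589), and the median of the list was 0.03.

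Among 5 tested genes of the immunoproteasome and its PA28 activator, POMP, a proteasome assembly factor, rose (log2 0.59, edgeR adjusted p = 0.00564), and PSME1, a PA28 subunit, fell (log2 -0.27, edgeR adjusted p = 0.0327). Neither passed after the GC correction, at edgeR adjusted p = 0.0844 for POMP and 0.104 for PSME1. PSMB9, the catalytic subunit whose gene lies beside TAP1, had 0.715, 1.03 and 0.618 FPKM in PLOD3 siRNA samples, against 1.17, 1.14 and 1.36 FPKM in si NC samples, without passing (log2 -0.63, edgeR adjusted p = 0.080, and -0.51 with GC corrected). PSMB9 is named here because it adjoins TAP1, a choice made after its values were seen. PSMB10, another catalytic subunit, went the other way, with overlapping groups (log2 1.00, edgeR adjusted p = 0.0637). With GC corrected it passed as higher (log2 1.31, edgeR adjusted p = 0.0317). PSMB8 was under the filter and did not pass in the fit without it (log2 -1.13, edgeR adjusted p = 0.109). Of 4 constitutive counterparts, PSMB7 (log2 0.54, edgeR adjusted p = 0.0129) and PSMB6 (log2 0.34, edgeR adjusted p = 0.0256) rose, both catalytic subunits of the standard proteasome. Of 8 cytosolic peptidases, LAP3 (log2 0.43), IDE (log2 0.53) and TPP2 (log2 0.38) rose (edgeR adjusted p = 0.00495, 0.00577 and 0.0143), and TPP2 did not pass after the GC correction (edgeR adjusted p = 0.16). The shares to set beside the lists of this paragraph are 16.2% higher and 19.3% lower over all genes tested, and no list is read as a result.

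Of 12 tested transcription factors that act on class I promoters, 3 were lower and 1 was higher, with a median of -0.24. Over all genes tested, 19.3% were lower and 16.2% were higher. RFX5, a subunit of the RFX complex, had 11.5, 10.4 and 7.0 FPKM in PLOD3 siRNA samples, against 15.9, 15.8 and 15.9 FPKM in si NC samples (log2 -0.71, edgeR adjusted p = 0.0267). RFXANK, its partner in that complex, fell too (log2 -0.52, edgeR adjusted p = 0.0418; 0.349 after the GC correction). CREB1, which binds the neighbouring element, fell to 1.25 ± 0.176 FPKM in PLOD3 siRNA samples, against 2.22 ± 0.160 FPKM in si NC samples (log2 -0.81, edgeR adjusted p = 0.00592). NFYB, a subunit of the CCAAT-binding factor, rose (log2 0.29, edgeR adjusted p = 0.0408), and its value turned to -0.03 after the GC correction.

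In interferon signalling, 2 of 10 tested genes were lower and 0 were higher, with a median of -0.17. The shares over all genes tested, to set beside each list in this paragraph, were 19.3% lower and 16.2% higher. SOCS3, a feedback inhibitor, fell (log2 -0.58, edgeR adjusted p = 0.0151), and so did IRF9, the DNA-binding subunit of the interferon-activated complex ISGF3 (log2 -0.55, edgeR adjusted p = 0.0475). Neither passed after the GC correction, at edgeR adjusted p = 0.0776 for SOCS3 and 0.122 for IRF9, and IFNG was listed at 0 in every sample. Of 7 genes of PRC2 and related silencing, which keeps class I genes low in some tumours, EED (log2 0.66, edgeR adjusted p = 0.00517), PCGF1 (log2 0.49, edgeR adjusted p = 0.0214) and EZH2 (log2 0.30, edgeR adjusted p = 0.0269) rose. EZH2 did not pass after the GC correction (edgeR adjusted p = 0.065). Of 9 tested genes for turnover of class I at the cell surface or in the ER, 4 fell and 0 rose, with a median of -0.27. They were the ubiquitin ligases MARCHF9 (log2 -0.74, edgeR adjusted p = 0.00473), WWP2 (log2 -0.58, edgeR adjusted p = 0.0253) and SYVN1 (log2 -0.57, edgeR adjusted p = 0.0474) and the membrane protein TMEM127 (log2 -0.29, edgeR adjusted p = 0.0197). Of these 4 genes, MARCHF9 alone also passed after the GC correction (edgeR adjusted p = 0.0151).

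Leaving out 1 sample at a time, CANX, SPPL3, POMP, PSMB7, LAP3, IDE, CREB1, SOCS3, EED and MARCHF9 passed in all 6 fits. TPP2 passed in 5, RFX5 in 3, PSMB6, PCGF1, EZH2, TMEM127, WWP2 and SYVN1 in 2, MICB, PSME1, RFXANK and IRF9 in 1, and ULBP1 and NFYB in 0, and each kept its sign. Genes with no corrected value given above, namely MICB, ULBP1, SPPL3, PSMB7, PSMB6, LAP3, IDE, RFX5, CREB1, EED and PCGF1, all passed after the GC correction too. Their log2 fold changes moved by over 1.5 times for IDE, to 0.26 (edgeR adjusted p = 0.0144), and ULBP1, to -0.53 (edgeR adjusted p = 0.0131). Highest adjusted p-values over the fits without 1 sample were 0.0524 for TPP2 and 0.0721 for RFX5.

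**Figure D5:**
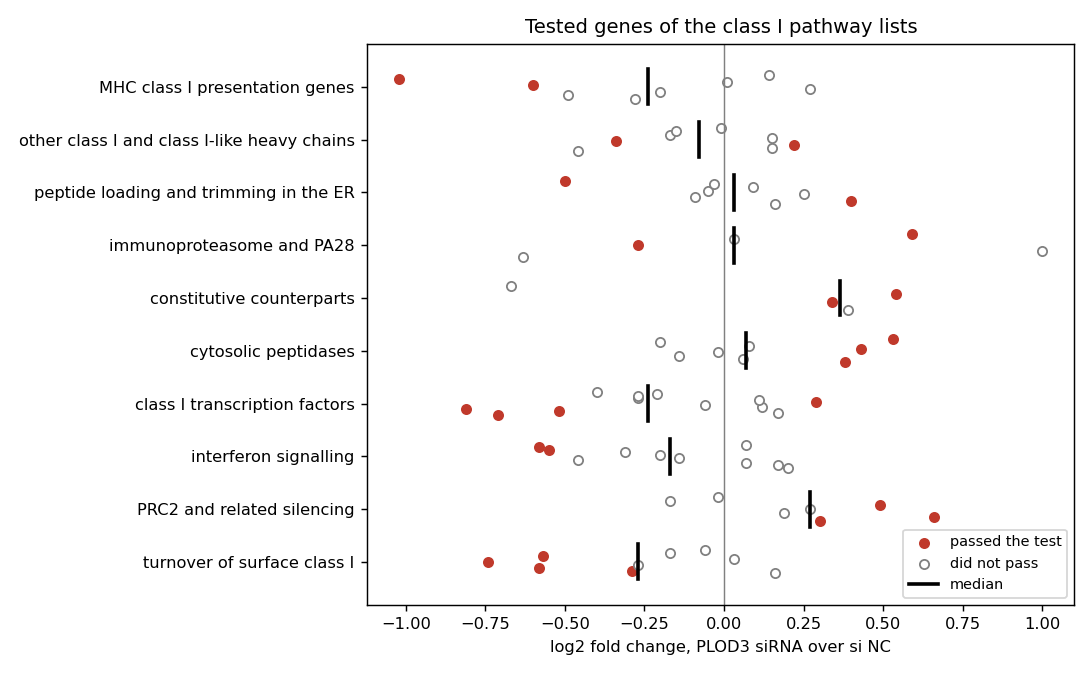
Log2 fold changes of the tested genes in the class I genes and in 9 lists of the pathway, each point a gene, with the median of each list and called genes filled. Medians of the lists run between -0.27 for surface turnover and 0.36 for the constitutive proteasome subunits, against 0.00 over all genes tested.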

How the data were processed

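RNA-seq values of 6 HCT116 samples were read from 1 table with 60612 genes and 12 value columns, of which 0 were left unmapped. Columns were matched to samples by the titles' group and replicate number. The authors deposited FPKM, per the file headers, not scaled further between samples, and estimated counts, per the file headers, which are whole numbers and not normalized. Per the submitters' processing notes, StringTie 1.3.4d, HISAT2 2.0.4 and cutadapt 1.9 were used. Sources used here give no genome build, annotation, strand setting or counting step. By identifier, 58394 genes (96.3%) were found in GENCODE release 29 (GRCh38), and 99.9% of these overlapped their annotated position, so coordinates were read as GRCh38. Low counts piled up at 4 (on average 558, 1490 and 312 genes per sample at a count of 3, 4 and 5), so counts may overstate the number of read pairs. The cause is not stated in the sources.

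Genes were kept if their FPKM averaged at least 1 across all 6 samples. Counts as deposited were scaled by TMM and compared with the quasi-likelihood test of edgeR 4.0.16 in R 4.3.3 (two-sided, Benjamini-Hochberg adjustment over 12000 genes), with no covariate and all 6 samples in the fit. DESeq2 1.42.0 and limma 3.58.1, on log2(FPKM + 1), log2(FPKM + 0.1) and log2(TPM + 1), were alternatives, beside other filters and scaling, counts divided by 4, the replicate number as a block and each sample left out. The GC correction subtracts a loess trend (span 0.5) of each sample's log counts on GC content of the longest coding transcript, for 11968 genes with a value. The fitting code was tested on simulated data. For a single value, 3 against 3 samples were compared with an exact permutation test. Figures were drawn with matplotlib 3.10.9.

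The genes and lists were chosen with earlier results of these data known. Named genes are the 9 genes, PLOD3, up to 4 called genes per list with the smallest p or all where 5 or fewer were called, the 3 genes nearest in profile to B2M, TAP1 and NLRC5, and genes that overlap the 9. List genes that passed only after the GC correction are named too, and PSMB8 and PSMB10 are named beside PSMB9. Some genes of the lists are not reported here, and lists, sums and figures were computed without them. Whether replicate numbers pair samples was checked by the correlation of same-numbered samples' deviations from their group means, which was 0.0486, -0.0107 and -0.023, so the numbers were not taken as pairs.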

Additional observations from a re-analysis of the deposited data

How the results depend on the processing

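TAPBP (log2 -1.08 to -0.73) and TAP1 (log2 -0.64 to -0.37) kept their direction and passed in all 20 alternatives tried on them. Lower genes among the 9 numbered 4 rather than 2 with a filter of at least 5 FPKM, which ERAP1 and NLRC5 do not reach. HLA-B and HLA-E (edgeR adjusted p = 0.0277 each) passed there too. Lower genes numbered 3 with DESeq2 and with limma on FPKM at either pseudocount (HLA-B added), and 2 in each fit without 1 sample. DESeq2 called 21.3% of all genes lower, and limma called 2196 and 2172 of 12000 lower. The share of all genes lower at 5 FPKM was not computed, so the count of 4 is not read as a result. Higher genes ranged from 0 to 1 without 1 sample, the 1 being B2M without PLOD3 siRNA replicate 3. Signs turned for B2M with GC and length (-0.09) and with the block and GC (-0.01), for TAP2 at 5 FPKM (-0.03) and without si NC replicate 3 (range -0.03 to 0.06 without 1 sample), for ERAP1 with GC (-0.10), the block and GC (-0.07), GC at 0.1 FPKM (-0.05) and without si NC replicate 2 (range -0.10 to 0.29 without 1 sample), and for NFYB with GC (-0.03) and the block and GC (-0.02). The summed heavy chains (log2 -0.34) passed at 5 FPKM (-0.38), with DESeq2 (-0.33) and without PLOD3 siRNA replicate 2, ranged from -0.45 to -0.23 without 1 sample, and stood at -0.35 with the replicate block. Over all genes, 1945 were higher and 2319 lower. At 5 FPKM these counts were 1192 and 1354, with the block and GC 1046 and 1202, with the block alone 1471 and 1834, and lower genes numbered 1461 with TPM and 1545 with GC and length. Without 1 sample they ranged from 1083 to 1651 and from 1509 to 2011, with the fewest higher genes without PLOD3 siRNA replicate 1 and the fewest lower genes without si NC replicate 3. In the pathway lists, 12 higher genes became 7 to 11 and 12 lower genes became 4 to 14 without 1 sample. Lower ones numbered 7 with no filter, 5 with TPM, 6 with GC, 7 with GC and length, 6 with the block and 4 with the block and GC. Fewer genes enter at 5 FPKM, and the cause of these moves was not tested. Same-numbered samples did not deviate together, so the block shares only a number. NLRC5 has no value in fits with at least 1 FPKM, and its low counts limit what could be detected.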

Other observations

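Some class II genes, which lie on chromosome 6 near TAP1 and TAPBP, were lower too, and they were looked at after their values were seen. HLA-DRA, the alpha chain of HLA-DR, had 2.28, 1.57 and 1.61 FPKM in PLOD3 siRNA samples, against 3.53, 2.81 and 3.62 FPKM in si NC samples (log2 -0.86, edgeR adjusted p = 0.0183). It passed after the GC correction as well (log2 -0.89, edgeR adjusted p = 0.0185). Of 13 class II chain and chaperone genes, HLA-DMA was the other above the filter and did not pass (log2 -0.44, edgeR adjusted p = 0.0951). HLA-DQA2 was listed at 0 in every sample. Another 10 were under the filter and were read from the fit without it, in which 6.29% of 32482 genes were lower. Of these 10, 2 passed as lower, 0 passed as higher and 8 did not pass, 9 had a log2 fold change below 0, and HLA-DQA1, at 0.0254 FPKM or less in every sample, had a value above 0 (edgeR adjusted p = 0.542). Those that passed were HLA-DOA and HLA-DMB. HLA-DOA, a chaperone subunit that restrains class II loading, had 0.154 ± 0.0575 FPKM in PLOD3 siRNA samples and 0.702 ± 0.0536 FPKM in si NC samples (log2 -2.15, edgeR adjusted p = 0.0055). HLA-DMB, of the class II loading chaperone, stood at log2 -0.99 (edgeR adjusted p = 0.0249), and among those that did not pass HLA-DRB1 was at -1.27 (edgeR adjusted p = 0.071). CIITA, the class II activator related to NLRC5, had 0.183 ± 0.136 FPKM in PLOD3 siRNA samples and 0.0906 ± 0.0291 FPKM in si NC samples, with overlapping groups (edgeR adjusted p = 0.275).

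The stretch of chromosome 6 from HLA-F to TAPBP held 93 tested genes outside the 9. Of these, 8.60% were higher and 26.9% were lower, against 16.2% and 19.3% of all genes tested, and their median log2 fold change was -0.15. Their median GC content was 56.1%, against 49.1% over all genes, and after the GC correction 18 (19.4%) were higher and 14 (15.1%) lower, against 13% and 14.4% of all genes, with a median of 0.08. HLA-H, a class I pseudogene in this stretch, had 5.68 ± 0.328 FPKM in PLOD3 siRNA samples and 7.47 ± 0.248 FPKM in si NC samples (log2 -0.39, edgeR adjusted p = 0.0283), and did not pass after the GC correction (edgeR adjusted p = 0.811).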
